A study of Solanum tuberosum with 12 samples.

Results

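The transcripts described here are the 4 that the study filed under acyl lipid metabolism in its list of 101 transcripts differing between *StRIK*-RNAi and Wild type potato tuber periderm, out of 54416 transcripts quantified in all. They were chosen on readout, because the list was made by comparing the 3 Wild type libraries with 6 of the 9 RNAi libraries, and all differences from the Wild type are therefore given as description without a test. Those 6 libraries are 1 of line 9, 2 of line 12 and all 3 of line 47, so the choice also used the lines unequally. It favours transcripts in which line 47 departs from the Wild type, upwards or downwards. Differences among the lines are for this reason described too, by estimate, SE and interval, with no p.

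Periderm is the suberized skin of the tuber, and its RNA was sequenced from freshly harvested tubers of soil-grown plants of the tetraploid cultivar Désirée. The Wild type plants carry no transgene, and lines 9, 12 and 47 are kanamycin-resistant transformants carrying a hairpin against *StRIK*, the potato homologue of the maize KH-domain protein RIK. Each of the 4 genotypes gave 3 libraries, described as biological replicates, so there are 12 libraries in all. Each line is 1 transformation event, so its 3 libraries share that event, and no plants transformed with an empty vector are among the samples used here. The study compared line 9 replicate 1, line 12 replicates 2 and 3 and all 3 libraries of line 47 with the Wild type, and did not use the other 3 RNAi libraries. Summed over the 3 isoforms that the hairpin targets, *StRIK* was between 41.8% and 85.3% of the Wild type mean in the 9 RNAi libraries, the highest share being that of line 9 replicate 2. The study kept RNAi libraries with *StRIK* under 2/3 of the Wild type. By the sum used here, line 12 replicate 1, which it did not use, was at 60.3%.

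Fatty acids of plant cells are assembled in the plastid, where acetyl-CoA carboxylase makes the malonyl-CoA that commits carbon to the pathway and soluble acyl-ACP desaturases place the first double bond while the chain is still on acyl carrier protein. Further double bonds are added by membrane desaturases after the chains have entered lipids, in the endoplasmic reticulum or in the plastid. In periderm, fatty acids also feed the aliphatic polyester of suberin. The 4 transcripts cover these steps in the order carboxylase, acyl-ACP desaturase and membrane desaturases. PGSC0003DMT400042102 is annotated as the alpha subunit of the acetyl-CoA carboxylase carboxyl transferase, and PGSC0003DMT400079076 as an acyl-[acyl-carrier-protein] desaturase. PGSC0003DMT400082017 is annotated as D12 oleate desaturase, with the best Arabidopsis match AT3G12120, the FAD2 enzyme that turns oleate into linoleate in the endoplasmic reticulum. PGSC0003DMT400057213 carries the potato annotation ubiquitin-conjugating enzyme variant, while its best Arabidopsis match is AT4G27030, fatty acid desaturase A, which in Arabidopsis makes the trans double bond of the hexadecenoic acid in plastid phosphatidylglycerol. It is called the desaturase A match below, and whether the potato protein has this activity was not analysed here.

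Levels are effective counts, the bias-corrected estimated counts that the eXpress program gives for each transcript, scaled to a common library size of 19876858 by edgeR's TMM method. Total effective counts were between 18650236 and 21585122 per library. Transcript lengths were not used, so levels and ranks compare transcripts by counts and not per length. Before scaling, the values of the 2 lowest transcripts fell near whole multiples of a step, 1.442 effective counts for PGSC0003DMT400042102 (10 values above 0, each within 0.0815 of a multiple) and 1.65 for PGSC0003DMT400079076 (7 values, within 0.116), and 1 step is taken here as 1 read. A count of 0 allows up to 3 reads, so a group with no library over 3 reads is treated as at the floor, which is 4.43 normalized counts for the former and 5.07 for the latter. Fold changes against such a group are the observed line mean over the floor. They allow for counting error in that group only, and not in the line mean. The file names carry lane tag 6 for the 3 Wild type libraries and line 47 replicates 2 and 3, and lane tag 7 for the other 7, and what the tag marks is not given in the sources used here. Line 47 is the only genotype with both tags, so in fits of the genotypes a tag effect comes from line 47 alone. For the other lines against the Wild type, tag and genotype cannot be told apart. In bulk periderm, fewer cells of a type and less RNA per cell cannot be told apart. The correlation between libraries on the log2 scale was 0.9241 to 0.9886, and 4 of the 12 libraries correlated most closely with a library of another genotype.

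The 4 transcripts differed widely in abundance. D12 oleate desaturase was among the 18 most abundant transcripts in each library, the desaturase A match was measured between 11.6 and 64.6 normalized counts, and the carboxyl transferase alpha and acyl-ACP desaturase transcripts stayed at or under 15.0 normalized counts in each library. D12 oleate desaturase made up between 99.88% and 99.99% of the summed effective counts of the 4. Against the Wild type mean, 3 of the 4 had a higher mean and 1 a lower mean in each of the 3 lines. On the log2 scale the fitted difference of the 6 study libraries from the Wild type had a median of 2.22 over the 4. Over all transcripts tested it was −0.00. The 4 were chosen on this contrast, so their distance from that median was fixed in advance and nothing is read from it. With the 2 transcripts whose Wild type is at the floor set to the ratio of their mean to that floor, the median of the 4 was 0.55. For the acyl-ACP desaturase this ratio was −0.49 on the log2 scale, because its mean is below the floor, and is not a measured decrease. The 0.55 mixes such limits with ratios of measured means and is not taken as an effect size. Over the whole table, edgeR's quasi-likelihood test called 16 of 37552 transcripts (0.0426%) in that contrast, with libraries of a line taken as replicates of RNAi.

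**Figure D1:**
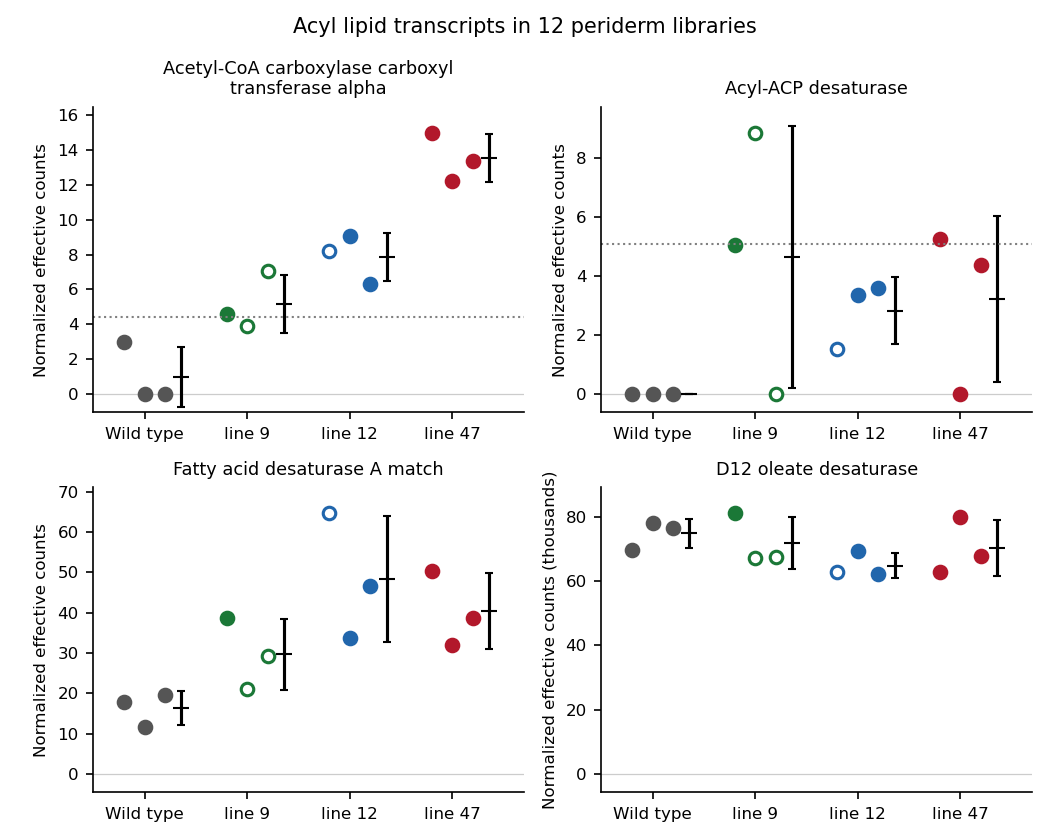
Normalized effective counts of the 4 acyl lipid transcripts (vertical axes, 1 panel per transcript) in the Wild type and lines 9, 12 and 47 (horizontal axes). Filled points are libraries that the study compared, open points are those it did not use, black dashes with bars are the mean ± SD of 3 libraries, and the dotted lines mark the floor of 3 reads, at 4.43 and 5.07 normalized counts as scaled in the Wild type. The desaturase A match and the carboxyl transferase alpha transcript have all RNAi libraries above all Wild type libraries, while the D12 oleate desaturase libraries overlap. Such a separation was seen for 0.719% of the 38364 transcripts tested, and the transcripts shown were chosen on this contrast.

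The carboxyl transferase alpha transcript, which encodes part of the enzyme that supplies malonyl-CoA, was at the floor in the Wild type and higher in all 9 RNAi libraries. Its normalized counts were 2.97, 0 and 0 in Wild type replicates 1, 2 and 3. Line 9 gave 4.56, 3.88 and 7.07, line 12 gave 8.19, 9.05 and 6.33, and line 47 gave 15.0, 12.2 and 13.4. In reads these are 2, 0 and 0 in the Wild type, 3, 3 and 5 in line 9, 6, 6 and 4 in line 12, and 10, 8 and 11 in line 47. All 9 RNAi libraries were thus above all 3 Wild type libraries, though line 9 replicates 1 and 2 do not exceed the floor of 3 reads, and those of line 47 were also above all of lines 9 and 12. Means were 0.990 ± 1.72 (SD, n = 3) in the Wild type, 5.17 ± 1.68 in line 9, 7.85 ± 1.39 in line 12 and 13.5 ± 1.38 in line 47. The line means were 1.77 times the Wild type floor in line 12 and 3.06 times in line 47, and the mean of the 6 study libraries 2.28 times. The counting error of these means is not included. For line 9 the ratio is 1.17 and rests on replicate 3, without which the line mean of 4.22 is below the floor. The Poisson SD of the reads for such means is 2.71, 3.42 and 4.37 normalized counts in lines 9, 12 and 47, and the observed SDs were below it. A complete separation upwards from the Wild type was seen for 6.4%, 8.37% and 5.56% of the 38364 transcripts tested in lines 9, 12 and 47, for 1.52% with the 6 study libraries and for 0.719% with all 9, and nothing is read from these shares because the contrast chose the transcripts.

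Line 47 exceeded line 9 in this transcript by 1.45 on the log2 scale (SE 0.58, 95% interval 0.18 to 2.71), in the direction that the choice of libraries favours. The libraries of lines 47 and 9 did not overlap, as was the case in either direction for 19.5% of all transcripts tested. Line 12 exceeded line 9 by 0.73 (SE 0.61, 95% interval −0.59 to 2.06), and these libraries overlapped. Line 47 exceeded line 12 by 0.71 (SE 0.55, 95% interval −0.48 to 1.91), with no overlap, a state shared by 16.4% of all transcripts. In the order line 47, line 12, line 9 the intervals of both neighbouring differences therefore include 0. Within lane tag 6, line 47 replicates 2 and 3 at 12.2 and 13.4 were above the Wild type, whose highest library was 2.97.

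The acyl-ACP desaturase transcript, of the family that desaturates stearoyl chains in the plastid stroma, was at 0 in all 3 Wild type libraries and low where it was found. Line 9 gave 5.05, 8.84 and 0 normalized counts, line 12 gave 1.51, 3.34 and 3.59, and line 47 gave 5.26, 0 and 4.37. In reads these are 3, 6 and 0 in line 9, 1, 2 and 2 in line 12, and 3, 0 and 3 in line 47. It was above 0 in 7 of the 9 RNAi libraries, and the 2 RNAi libraries at 0 overlap the Wild type. Means were 4.63 ± 4.43 (SD, n = 3) in line 9, 2.81 ± 1.14 in line 12 and 3.21 ± 2.81 in line 47. The mean of the 6 study libraries was 3.60 ± 1.92. All these means are below the floor of 5.07, so no fold is given, and line 9 replicate 2 is the library with more than 3 reads. Within lane tag 6, line 47 replicates 2 and 3 at 0 and 4.37 overlapped the Wild type.

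The lines could not be ordered by this transcript. Line 12 minus line 9 was −0.78 on the log2 scale (SE 1.09, 95% interval −3.21 to 1.66). Line 47 minus line 9 was −0.58 (SE 1.06, −2.94 to 1.79) and line 47 minus line 12 was 0.20 (SE 1.14, −2.34 to 2.73). Each interval spans changes of several fold in both directions. The observed SD was 1.62 times the Poisson SD of the reads in line 9, 0.519 times in line 12 and 1.24 times in line 47, and without line 9 replicate 2 the differences of lines 12 and 47 from line 9 turned to 0.09 and 0.29.

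The desaturase A match was the transcript of the 4 with both a measurable Wild type level and a higher level in the RNAi lines. Its normalized counts were 18.0, 11.6 and 19.5 in Wild type replicates 1, 2 and 3. Line 9 gave 38.7, 21.1 and 29.3, line 12 gave 64.6, 33.7 and 46.6, and line 47 gave 50.4, 32.0 and 38.8. All 9 RNAi libraries were above all 3 Wild type libraries, the nearest being line 9 replicate 2 at 21.1 against Wild type replicate 3 at 19.5. Such a separation with all 9 was seen for 0.719% of the 38364 transcripts tested. Nothing is read from it because the contrast chose the transcript. Means were 16.4 ± 4.19 (SD, n = 3) in the Wild type, 29.7 ± 8.82 in line 9, 48.3 ± 15.5 in line 12 and 40.4 ± 9.31 in line 47. The ratio of means to the Wild type was 1.81 in line 9, 2.95 in line 12 and 2.47 in line 47.

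On the log2 scale the fitted difference of the desaturase A match from the Wild type was 0.83 (SE 0.34) in line 9, 1.55 (SE 0.33) in line 12 and 1.28 (SE 0.34) in line 47. It was 1.27 (SE 0.25) over the 6 study libraries and 1.25 (SE 0.32) over all 9. The 3 RNAi libraries that the study did not use, line 9 replicates 2 and 3 and line 12 replicate 1, had a mean of 38.3 ± 23.1 beside 40.03 ± 7.20 in the 6 that it used, and they include both the lowest and the highest RNAi value. Within lane tag 6, line 47 replicates 2 and 3 at 32.0 and 38.8 were above the Wild type range of 11.6 to 19.5. With the lane tag as a covariate the difference was smaller in line 9, at 0.34, and in line 12, at 1.06. The tag effect in this fit comes from line 47 alone, replicate 1 against replicates 2 and 3. Lines 9 and 12 share no tag with the Wild type.

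Line 12 exceeded line 9 in the desaturase A match by 0.72 on the log2 scale (SE 0.32, 95% interval 0.03 to 1.40), and by 0.44 without line 12 replicate 1. Their libraries overlapped, since line 9 replicate 1 was above line 12 replicate 2. Line 47 minus line 9 was 0.45 (SE 0.32, −0.24 to 1.14) and line 47 minus line 12 was −0.26 (SE 0.31, −0.94 to 0.41). In the order line 12, line 47, line 9 the intervals of both neighbouring differences include 0.

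D12 oleate desaturase, which provides linoleate to membrane and storage lipids, was abundant in all 4 genotypes, and the means of the RNAi lines were at most 13.4% below the Wild type mean. Its normalized counts were 69772, 78001 and 76610 in Wild type replicates 1, 2 and 3. Line 9 gave 81022, 67099 and 67363, line 12 gave 62849, 69250 and 62118, and line 47 gave 62829, 79897 and 67907. In line 12 all 3 libraries were below the lowest Wild type library, as for 7.07% of all transcripts in that line, while lines 9 and 47 each had 2 libraries below and 1 library above the whole Wild type range. Means were 74794 ± 4405 (SD, n = 3) in the Wild type, 71828 ± 7964 in line 9, 64739 ± 3924 in line 12 and 70211 ± 8764 in line 47. The line means differed from the Wild type mean by −3.97%, −13.4% and −6.13% in lines 9, 12 and 47, and the mean of the 6 study libraries, 70504 ± 8203, by −5.74%. On the log2 scale the fitted differences were −0.06, −0.21 and −0.09, each with an SE of 0.21, and −0.09 (SE 0.18) over the 6 study libraries, so none was larger than about its SE. With the lane tag as a covariate the sign turned in line 9 (0.18) and line 12 (0.03), where the tag effect again comes from line 47 alone. Within lane tag 6 line 47 replicates 2 and 3, at 79897 and 67907, lay on both sides of the Wild type range of 69772 to 78001.

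Among the lines, D12 oleate desaturase differed by less than the SE. Line 12 minus line 9 was −0.15 on the log2 scale (SE 0.21, 95% interval −0.60 to 0.30). Line 47 minus line 9 was −0.03 (SE 0.21, −0.48 to 0.42) and line 47 minus line 12 was 0.12 (SE 0.21, −0.33 to 0.57). Depth does not limit these values, because the SD within a genotype was between 15.4 and 33.1 times the Poisson SD of its mean.

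Over the whole table, edgeR (quasi-likelihood, p adjusted by Benjamini-Hochberg) called 16 of 38364 transcripts (0.0417%) in a joint test of the 3 lines, 14 (0.0365%) between lines 12 and 9, 8 (0.0209%) between lines 47 and 9 and 9 (0.0235%) between lines 47 and 12. At an unadjusted p under 0.05 these numbers were 4331, 3718, 4835 and 2856. The 4 acyl lipid transcripts were not among those called by edgeR, DESeq2 or limma-voom, and nothing is read from this because the choice used the lines. DESeq2 gave no adjusted p for the acyl-ACP desaturase between any pair of lines. It also gave none for the carboxyl transferase alpha in line 12 minus line 9. The median log2 difference of the 4 was 0.28 for line 12 minus line 9, 0.21 for line 47 minus line 9 and 0.16 for line 47 minus line 12.

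**Figure D2:**
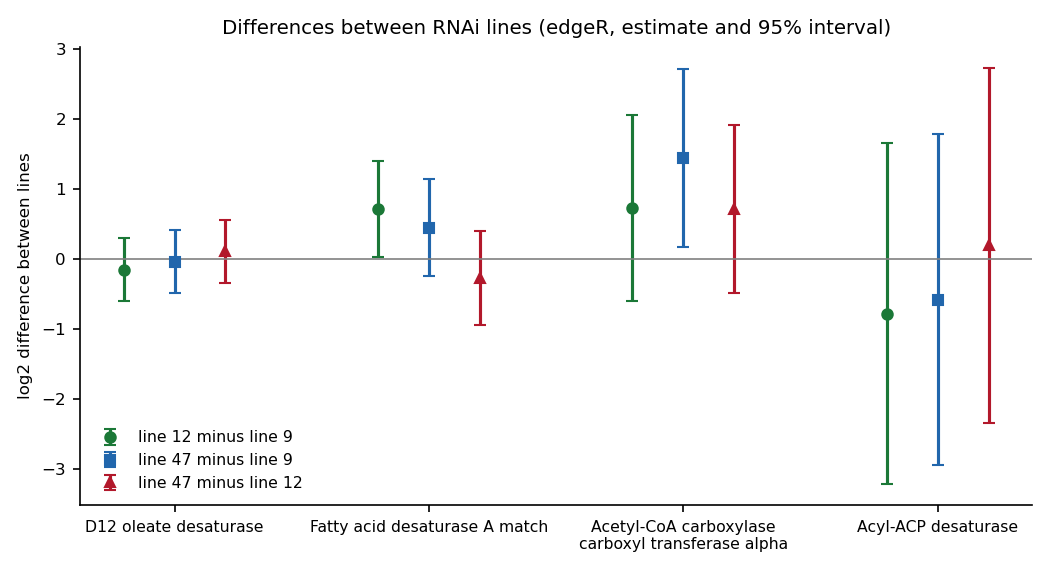
Log2 differences among the RNAi lines for the 4 transcripts (horizontal axis) in each pairwise comparison, as edgeR estimates (points) with 95% intervals (bars). The intervals are unadjusted, and the transcripts were chosen on libraries of these lines. An interval that leaves out 0 is therefore not taken as a test of a difference. The interval leaves out 0 for the carboxyl transferase alpha in line 47 minus line 9 (0.18 to 2.71). It also does so for the desaturase A match in line 12 minus line 9 (0.03 to 1.40), and all other intervals include 0. In these comparisons, 4835 and 3718 of 38364 transcripts had an unadjusted p under 0.05 by edgeR's quasi-likelihood test.

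By effective counts, D12 oleate desaturase ranked 10 or 11 in the Wild type libraries and between 11 and 18 in the RNAi libraries, and rank 10 by its mean over all 12. It took between 0.296% and 0.398% of all effective counts of a library. Its highest library was 1.30 times its lowest, and its coefficient of variation over the 12 libraries, 9.68%, was the 2nd lowest among the 100 most abundant transcripts, whose median was 23.3%. Over the Wild type libraries alone the coefficient was 5.89%, against a median of 21.3%. At the other end, the desaturase A match ranked between 20037 and 29552 over the 12 libraries. The carboxyl transferase alpha transcript ranked between 28590 and 34675 in the 10 libraries where it was above 0, and the acyl-ACP desaturase transcript between 31328 and 36361 in its 7.

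**Figure D3:**
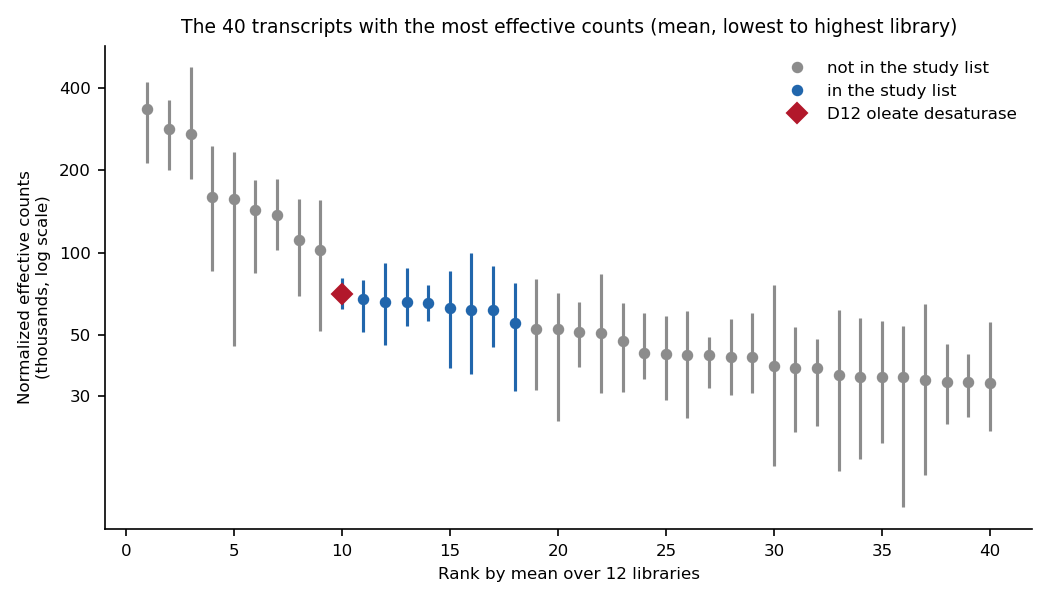
Mean normalized effective counts over the 12 libraries (vertical axis, log scale) of the 40 most abundant transcripts by rank (horizontal axis), with bars from the lowest to the highest library. D12 oleate desaturase stands at rank 10 and the 9 transcripts of ranks 10 to 18 are all in the study's list.

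For the desaturase A match and D12 oleate desaturase, the transcripts with the most similar pattern were looked for among 30866 transcripts with a mean of at least 10 counts, by Pearson's r of log2 CPM (scaled counts) over the 12 libraries. These correlations share libraries and genotype differences and are description. The pattern of the desaturase A match was nearest to PGSC0003DMT400055527, which has no name in the sources used here (r = 0.943, rho = 0.965). Of the study's list, the nearest was PGSC0003DMT400061541, annotated as a DREB transcription factor (r = 0.938, rho = 0.944), followed by PGSC0003DMT400062508, annotated as a leaf protein (r = 0.835). The 99th percentile of r over all transcripts was 0.71. The list was chosen on the difference between genotypes, which both transcripts therefore carry, and within the 9 RNAi libraries the r with the DREB transcript was 0.871 (rho = 0.867).

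DREB proteins are transcription factors, and the study relates the Arabidopsis match of this transcript to drought, salt and heat stress. The DREB transcript had normalized counts of 2.26, 2.19 and 4.56 in the Wild type, 39.2, 23.7 and 18.4 in line 9, 116, 34.7 and 81.4 in line 12 and 80.2, 42.4 and 91.1 in line 47. Line 12 replicate 1 was the highest library for both transcripts. Without the 2 libraries farthest from the median of the desaturase A match, r was 0.917.

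**Figure D4:**
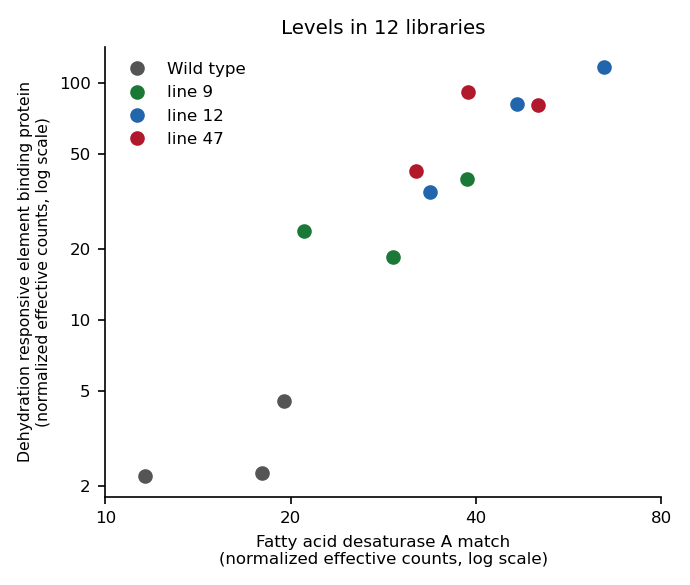
Normalized effective counts of the desaturase A match (horizontal axis, log scale) and of the DREB transcript (vertical axis, log scale) in the 12 libraries, with a colour per genotype. The 3 Wild type libraries lie at the lower left, between 11.6 and 19.5 on the horizontal axis, and line 12 replicate 1 lies at the upper right.

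D12 oleate desaturase was nearest in pattern to PGSC0003DMT400050346, also without a name here (r = 0.931, rho = 0.867). In the study's list the nearest were PGSC0003DMT400055489, a phenylalanine ammonia-lyase (r = 0.53, rho = 0.483), the entry enzyme of phenylpropanoid synthesis, and PGSC0003DMT400054499, a transducin (r = 0.472, rho = 0.531). The 99th percentile of r over all transcripts was 0.699. Without the 2 libraries farthest from the median of D12 oleate desaturase, r was 0.302 with the phenylalanine ammonia-lyase and 0.764 with the transducin. Their order therefore depends on those libraries. It also depends on the measure, since rho with no library left out puts the transducin first. Among the 4 themselves, r was 0.747 between the desaturase A match and the carboxyl transferase alpha, −0.548 between the desaturase A match and D12 oleate desaturase, and between −0.43 and 0.355 for the other pairs. The 4 were chosen on the difference from the Wild type, which these r therefore carry. For these pairs r within the RNAi libraries alone was not computed. The carboxyl transferase alpha was also at 0 in 2 libraries. Other genes of acyl lipid metabolism, and markers of periderm, were not analysed here because the gene table used pairs none of these transcript identifiers with names.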

How the data were processed

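The authors mapped the reads with Bowtie2 to the *S. tuberosum* Group Phureja transcriptome and deposited effective counts from eXpress (1.5.1 in the submitters' processing notes), which are estimated counts per transcript, not normalized between libraries. Reads shared by isoforms or near-identical copies are divided among them by eXpress, so such counts depend on each other, and strand-specific counting is not stated. Effective counts were rounded, transcripts whose counts summed to under 10 in a fit were left out, and edgeR 4.0.16 (TMM, quasi-likelihood test, Benjamini-Hochberg adjustment over all transcripts, threshold 0.05) was run in R 4.3.3 on all 12 libraries for the lines, and on the 9 study libraries for RNAi against Wild type. Because the transcripts were chosen on libraries of both contrasts, p-values are used only as counts over the whole table. The scripts were tested on simulated data. The alternative fits left out each library in turn, used all 9 RNAi libraries, added a lane tag covariate or a replicate block, dropped the minimum count, took RLE factors in place of TMM, or replaced edgeR by limma-voom (limma 3.58.1) or DESeq2 1.42.0. The pseudocount for patterns was 0.5 CPM. Figures used matplotlib 3.10.9.

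The members and lists were chosen with earlier results of these data known. Named are the 4 transcripts of the category, the most similar transcript of all and the 2 most similar of the study's list, members of the list among the 100 most abundant, and *StRIK*. The names come from the study's list. The same replicate number did not mark samples that deviate together, so the numbers were not taken as pairs. Between genotypes, 5 of 18 correlations of deviations with the same number were over 0.1 (range −0.505 to 0.503). With different numbers, 18 of 36 were over 0.1 (range −0.571 to 0.618). Some libraries of different genotypes thus deviated together, and the reason was not tested. P-values for the lines rest on the spread within the 4 genotypes, fitted over all 12 libraries. Those for RNAi against Wild type take the 6 RNAi libraries as replicates, though libraries of a line share a transformation event. They therefore do not measure the spread between events. Sequences, lengths and coordinates were not used here.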

Additional observations from a re-analysis of the deposited data

Results flagged for a closer look

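The acyl-ACP desaturase transcript was at 0 counts in line 47 replicate 2, while the other 5 RNAi libraries that the study compared had between 3.34 and 5.26 normalized counts. The gap from 0 to the nearest of the others was 0.635 of the whole range of the 6, above Dixon's 95% critical value of 0.625. Over all 9 RNAi libraries, where line 9 replicate 3 was also at 0, it did not stand out. Of 8 such group tests this was the only one past its critical value. That value is for continuous, normally distributed measurements, while these are counts of 2 or 3 reads in the 5 libraries above 0. The transcript was also chosen on these 6 libraries, so a rate of 1 in 20 by chance does not apply. Nothing is read from the test. The mean over the 6 was 3.60 normalized counts, and a count of 0 allows up to 3 reads of this transcript, or 5.07 normalized counts.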

How the results depend on the processing

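Over the 18 alternatives, line 47 minus line 9 of the carboxyl transferase alpha ranged from 1.26 to 1.76 on the log2 scale and line 12 minus line 9 of the desaturase A match from 0.44 to 0.93. The acyl-ACP desaturase turned sign in each difference among lines (line 12 minus 9 up to 0.09, line 47 minus 9 up to 0.29, line 47 minus 12 down to −0.37). The desaturase A match stayed above the Wild type in each line. The numbers of transcripts called over the whole table moved more. In the order line 12 minus 9, line 47 minus 9, line 47 minus 12, joint test and RNAi minus Wild type, edgeR called 14, 8, 9, 16 and 16, DESeq2 280, 525, 169, 679 and 85, and the lane tag covariate gave 9, 4, 5, 10 and 33. Limma-voom called 10 in RNAi minus Wild type. With the replicate number as a block the counts were 5, 8, 6, 11 and 9, though the numbers are not known to pair the samples. Leaving out 1 library gave 6 (line 12 replicate 2) to 22 (line 9 replicate 2), 4 (line 9 replicate 2 or line 47 replicate 2) to 37 (line 47 replicate 1), 5 (line 12 replicate 3) to 39 (line 47 replicate 1), 10 (line 12 replicate 2) to 47 (line 47 replicate 1) and 6 to 47 (line 9 replicate 1). For the carboxyl transferase alpha, the fitted log2 difference of the 6 study libraries went from 3.17 to 6.35 without Wild type replicate 1, because the remaining Wild type libraries are at 0. The line 47 minus line 12 sign turned with the lane tag covariate for the desaturase A match (0.05) and D12 oleate desaturase (−0.04), and for the former also without line 12 replicate 1 (0.00887). With that covariate the tag effect rests on line 47 replicate 1 against the other libraries of its line. Line 47 minus line 9 of D12 oleate desaturase rose to 0.06 without line 9 replicate 1. The cause of the other shifts was not tested. Depth limits the carboxyl transferase alpha and the acyl-ACP desaturase, whose Wild type libraries are at the floor.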

Other observations

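D12 oleate desaturase was not the only transcript of its abundance in the study's list. Ranked by mean effective counts over the 12 libraries, the 9 transcripts of ranks 10 to 18 were all in the list, and none of ranks 1 to 9 or 19 to 100 was. The next member of the list stood at rank 143. The 9 are D12 oleate desaturase, a catalase, a polyubiquitin, a metallothionein 2, a peroxidase, a DAHP synthase, 2 phenylalanine ammonia-lyases and a dehydrin. Their means ran from 70393 to 55342 normalized counts, between 102022 at rank 9 and 52718 at rank 19. Over the study libraries the median absolute log2 difference between RNAi and Wild type was 0.09 for the 9, with a maximum of 0.55, and 3.50 for the other 90 tested members of the list, with a minimum of 0.47. The list had 64 members with a mean of at least 10 counts and 37 below. How these 9 entered the list was not tested.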
